A study of Mus musculus with 10 samples.

Results

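The genes described here were sorted by the H3K4me2 and the H3K27me3 found around their transcription start site (TSS) in mouse retina at postnatal day 15 (PN15). A gene was counted as carrying a mark where its normalized occupancy reached 36.48, which is 4 times the mean value of 9.12 given for the anti-GFP control. This value was applied to each of the PN15 columns. By this rule 1049 of 20045 genes had both marks (5.23% of the table), 9584 had H3K4me2 alone (47.8%), 2099 had H3K27me3 alone (10.5%) and 7313 had neither (36.5%). The class sizes follow from the chosen value and are a description.

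The study followed these marks by ChIP-Seq, the sequencing of DNA recovered with an antibody, in mouse retina at 4 stages, namely E17.5 and the postnatal days PN1, PN7 and PN15. Each mark and stage had 1 library made from at least 20 pooled retinas, so no difference below has a replicate to be compared with and no test was possible. No treatment was given. The libraries come from wild type C57BL/6j mice according to the methods of the study, whereas the sample labels name the Pde6b rd1/rd1 mutant, in which rods degenerate, for all of them. E17.5 appears as E17 in the labels, whose antibody catalogue numbers for the 2 marks also differ from those of the methods. These points could not be settled from the values, and titles were used to assign the marks. The H3K4me2 library of rd1/rd1 retinas at PN30 and the anti-GFP library were not analysed here.

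H3K4me2 is a methylation of histone H3 at lysine 4 that marks active and poised promoters. H3K27me3 is written by Polycomb repressive complex 2 and is found at genes held silent, among them developmental regulators. Promoters with both kinds of mark are known as bivalent, and were first described in embryonic stem cells, where many belong to regulators of cell fate. In a tissue with several cell types, such as the retina with its rods, cones, interneurons, ganglion cells and Mueller glia, a gene can show both marks because one chromatin fragment carries both or because different cells carry one each. ChIP-Seq of whole retina cannot tell these apart, nor can it tell fewer cells with a mark from less of the mark in each cell.

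The following 250 bases end just before the RefSeq gene start (GRCm38.p6) and are written from 5′ to 3′, with each CpG dinucleotide in capitals. They stand for the 4 classes. Nr4a2 (chr2:57124004-57124253, minus strand) and Id2 (chr12:25096093-25096342, minus strand) had both marks, Mef2d (chr3:88142122-88142371, plus strand) had H3K4me2 alone, Pou4f2 (chr8:78436648-78436897, minus strand) and the S opsin gene Opn1sw (chr6:29380514-29380763, minus strand) had H3K27me3 alone, and the albumin gene Alb (chr5:90460620-90460869, plus strand) had neither.
Nr4a2: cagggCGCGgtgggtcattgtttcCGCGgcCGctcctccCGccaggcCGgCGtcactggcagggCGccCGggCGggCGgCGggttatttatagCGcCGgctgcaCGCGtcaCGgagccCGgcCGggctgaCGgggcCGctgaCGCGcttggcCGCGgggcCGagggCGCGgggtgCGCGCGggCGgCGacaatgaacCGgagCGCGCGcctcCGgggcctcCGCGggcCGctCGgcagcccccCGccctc
Id2: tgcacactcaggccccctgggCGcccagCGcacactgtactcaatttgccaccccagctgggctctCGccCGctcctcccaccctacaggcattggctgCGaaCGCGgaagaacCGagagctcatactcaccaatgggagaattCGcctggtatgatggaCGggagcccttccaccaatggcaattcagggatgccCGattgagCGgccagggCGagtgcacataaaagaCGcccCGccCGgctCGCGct
Mef2d: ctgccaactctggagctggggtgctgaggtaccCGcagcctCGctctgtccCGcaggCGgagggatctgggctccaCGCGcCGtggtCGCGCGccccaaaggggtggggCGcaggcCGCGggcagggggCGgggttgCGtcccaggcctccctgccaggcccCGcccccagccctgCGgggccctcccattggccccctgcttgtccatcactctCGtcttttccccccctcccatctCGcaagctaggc
Pou4f2: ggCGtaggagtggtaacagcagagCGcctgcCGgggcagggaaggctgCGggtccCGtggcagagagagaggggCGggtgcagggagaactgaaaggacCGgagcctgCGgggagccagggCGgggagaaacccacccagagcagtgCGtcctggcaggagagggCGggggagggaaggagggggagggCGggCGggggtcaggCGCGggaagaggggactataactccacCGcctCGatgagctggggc
Opn1sw: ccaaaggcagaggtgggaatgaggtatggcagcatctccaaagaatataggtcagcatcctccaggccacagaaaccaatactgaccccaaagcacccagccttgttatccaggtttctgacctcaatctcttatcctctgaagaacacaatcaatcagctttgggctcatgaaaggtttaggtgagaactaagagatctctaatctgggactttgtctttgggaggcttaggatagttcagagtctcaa
Alb: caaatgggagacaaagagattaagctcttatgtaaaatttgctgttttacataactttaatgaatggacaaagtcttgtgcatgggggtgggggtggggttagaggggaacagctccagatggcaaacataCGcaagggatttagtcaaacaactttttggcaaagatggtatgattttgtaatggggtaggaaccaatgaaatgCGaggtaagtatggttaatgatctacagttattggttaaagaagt
The Nr4a2 stretch holds 44 CpG, Id2 holds 18, Mef2d 19, Pou4f2 17, Alb 2 and Opn1sw 0. Pou4f2 and Opn1sw thus share a class with very different CpG content.

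Genes with both marks had a lower median of each mark than the genes with that mark alone. That they lie above the genes without the mark follows from the rule. The same values set the classes, so the medians are only a description. Their median normalized occupancy (reads within 2.5 kb on each side of the TSS, scaled by the authors to the reads of the library) was 53 for H3K4me2, against 78 for genes with H3K4me2 alone. For H3K27me3 it was 64, against 76 for genes with H3K27me3 alone. The window has the same length at every gene. H3K27me3 had the larger value in 643 of the 1049 genes, H3K4me2 in 393, and 13 had equal values, although the antibodies are not on one scale. The lesser of the values had a median of 46. It reached 75 in 64 genes and 100 in 10 genes.

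Many genes lay close to the value that set the classes. Among genes with H3K27me3, 45 had an H3K4me2 value of 36, just below, and 47 had 37, just above. Among genes with H3K4me2, 24 had an H3K27me3 value of 36 and 25 had 37. In the H3K27me3 column 1 read corresponds to a value of 0.873, as read from the spacing of the deposited whole numbers, and in the H3K4me2 column no spacing other than 1 was found. Exact Poisson 95% intervals from these read numbers cover counting error only. They lay above 36.48 for both marks in 413 genes with both marks (39.4%), and on one side of it in 8240 genes with H3K4me2 alone (86.0%), 1199 with H3K27me3 alone (57.1%) and 5893 with neither (80.6%).

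How the marks went together over the whole table depended on the value that counts as marked. At 36.48, H3K27me3 was present at 9.87% of the 10633 genes with H3K4me2 and at 22.3% of the 9412 genes without it. Read the other way, H3K4me2 was present at 33.3% of the 3148 genes with H3K27me3 and at 56.7% of the rest. The direction was the same at 2, 3, 6 and 8 times the mean anti-GFP value, and with H3K27me3 scaled to the median of H3K4me2. With the 99th percentile of the olfactory receptor genes as the value in each column (9.54 for H3K4me2 and 41.5 for H3K27me3), the direction reversed. H3K27me3 was then at 15.9% of the genes with H3K4me2 and 9.25% of those without, and H3K4me2 at 78.8% of the genes with H3K27me3 and 66.7% of the rest. The rank correlation of the columns was -0.345 over 20045 genes, -0.151 within the genes with both marks and -0.285 within those with H3K4me2 alone. It was 0.081 within the genes with H3K27me3 alone and 0.161 within those with neither. The classes were cut from these same columns, which limits the values that each class can hold. These genes also share the same libraries and the columns share their mapping, so the correlations are only a description.

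**Figure D1:**
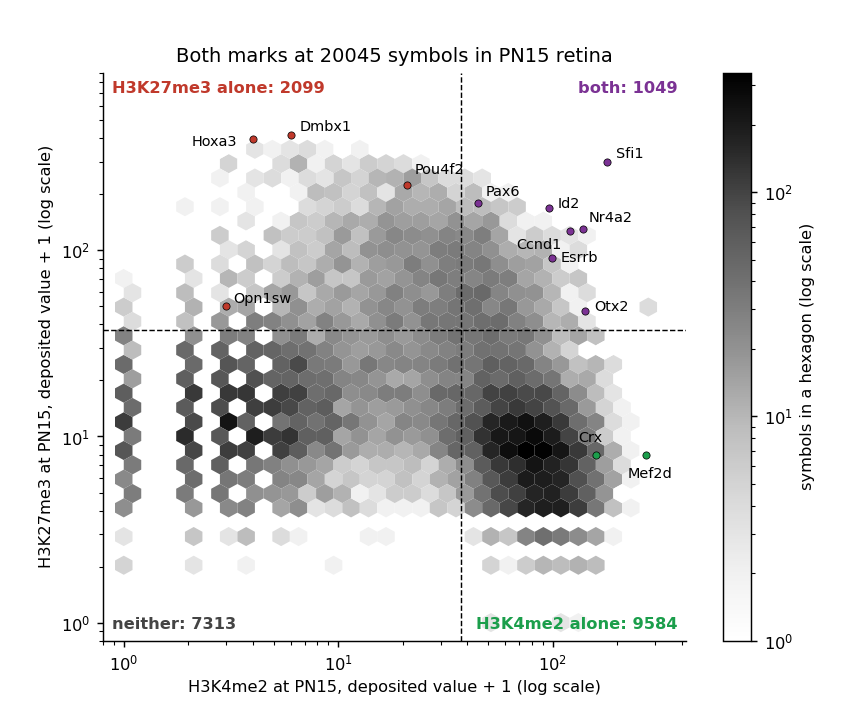
Deposited H3K4me2 value (x axis) and H3K27me3 value (y axis) at PN15, each plus 1 on a log scale, for 20045 gene symbols, with darker hexagons holding more symbols and named genes as points. Dashed lines mark a value of 36.48, and the upper right field holds the 1049 genes with both marks.

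The genes richest in both marks had different functions. Ranked by the lesser of their values, the first 10 were Sfi1, Nr4a2, Ccnd1, Icam5, Egr2, Vax2, Bcl11a, Zmiz1, Smad6 and Hs3st3b1. Sfi1, a centrosomal gene, stood apart with 178 for H3K4me2 and 298 for H3K27me3. Its H3K4me2 value was 127 at E17.5, 168 at PN1 and 36 at PN7, so that at PN7 it fell just below the value. From its group of candidate rod genes the study left out some with a large anti-GFP signal. Whether Sfi1 has such a signal was not tested here.

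Nr4a2, an orphan nuclear receptor of neurons, held H3K4me2 at 137 (counting interval 115 to 162) and H3K27me3 at 129 (109 to 152) at PN15. It had both marks at every stage, with 129, 82 and 185 for H3K4me2 and 131, 198 and 216 for H3K27me3 at E17.5, PN1 and PN7. Its promoter, printed above, is one of the densest in CpG among those shown. Ccnd1, the cyclin D1 gene that drives retinal progenitors through the G1 phase, had 120 for H3K4me2 and 126 for H3K27me3. Its H3K27me3 was 71 at E17.5, 134 at PN1 and 222 at PN7, so the PN15 value was below that of PN7 while H3K4me2 stood at 118, 73 and 161.

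Icam5, a neuronal adhesion molecule, and Egr2, an immediate early transcription factor, had high H3K27me3 at birth and less of it at PN15. In Icam5 the values ran 291, 430, 262 and 120 from E17.5 to PN15, and in Egr2 301, 451, 276 and 125. The highest H3K27me3 value over all genes was 809, 1125, 766 and 416 at the same stages. The median of the Hox genes was 702 at E17.5 and 318 at PN15. Falls from high values were thus not particular to these genes. Their H3K4me2 at PN15 was 132 and 113. Vax2, a regulator of the ventral retina, had 108 for H3K4me2 and 145 for H3K27me3.

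Bcl11a and Zmiz1 moved the other way. Bcl11a, a zinc finger regulator of neuronal identity, had H3K27me3 of 17, 53, 117 and 107 from E17.5 to PN15. Zmiz1, a transcriptional coregulator, had 3, 7, 48 and 117, with H3K4me2 of 120, 91, 210 and 107 at the same stages. Smad6, an inhibitor of Bmp signalling, had 111 and 106 at PN15, and Hs3st3b1, an enzyme that sulfates heparan sulfate, 105 and 114, for H3K4me2 and H3K27me3 in that order.

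Other genes of the class carried much of one mark and little of the other. The most H3K4me2 was found at A730008H23Rik (278, with 44 for H3K27me3), Hjurp (278 and 45), the protocadherin Pcdh10 (269 and 46) and 4930525F21Rik (261 and 50). A730008H23Rik and Hjurp had nearly equal values, and whether their windows overlap was not tested. After Sfi1, the most H3K27me3 was found at Gata2 (42 for H3K4me2 and 283 for H3K27me3), Ccnd2 (45 and 271) and Esrp1 (38 and 252). These ends of the class were looked up after values had been seen.

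The classes with a single mark were led by other genes. The most H3K4me2 among genes with H3K4me2 alone was found at Mef2d (271), a partner of photoreceptor transcription factors, Psd (241), Meis1 (232), Marcks (221), Junb (218), Slc25a22 (218), Trp53 (214), Kif21b (213), Dedd2 (212) and Extl2 (211). Their H3K27me3 lay between 3 and 19. Mef2d and Psd had carried H3K27me3 at E17.5, at 81 and 176, against 7 and 19 at PN15. The most H3K27me3 without H3K4me2 was found at Dmbx1 (416), a homeobox gene of the brain, followed by Hoxa3 (397), Hoxa7 (395), Hoxb6 (385), Hoxa11 (380), Hoxb7 (380), Hoxc10 (376), Hoxb5 (371), Hoxc9 (370) and Evx1 (364). Their H3K4me2 lay between 1 and 8.

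The genes of rods, the most abundant cells of the mouse retina, lay almost entirely on the H3K4me2 side. Of 19 rod phototransduction genes, 17 had H3K4me2 alone and 2 had both marks, and the median values were 85 for H3K4me2 and 13 for H3K27me3 against 42 and 10 over all genes. Over all genes 47.8% had H3K4me2 alone and 5.23% had both marks. At E17.5 the list had 1 gene with both marks, 3 with H3K4me2 alone, 3 with H3K27me3 alone and 12 with neither, when the shares over all genes were 7.52%, 46.5%, 8.49% and 37.5%. The transducin gene Gnat1 had 105 for H3K4me2 and 15 for H3K27me3 at PN15, the phosphodiesterase gene Pde6b 95 and 10, and Rcvrn, which encodes recoverin, 134 and 13.

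The rod genes with both marks were Slc24a1 and Guca1a. Slc24a1, the sodium-calcium exchanger of the rod outer segment, had H3K27me3 of 182, 180, 157 and 40 from E17.5 to PN15, while its H3K4me2 ran 14, 9, 3 and 111. Its H3K27me3 at PN15 (counting interval 29.4 to 53.6) was just over the value and below 41.5, the 99th percentile of the olfactory receptor genes, after much higher values at the earlier stages. Guca1a, an activator of the guanylate cyclase, had 47 for H3K4me2 and 58 for H3K27me3, with 9 and 117 at E17.5. Of the 18 outer segment and disease genes, 16 had H3K4me2 alone and 2 had both marks, against 47.8% and 5.23% of all genes. Those with both marks were Tulp1, at 81 and 49 after 22 and 273 at E17.5, and the retinoid transporter gene Abca4. Abca4 had 160 and 37 after 36 and 169, the 37 being below that percentile too.

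All 11 regulators of photoreceptors had H3K4me2, 8 of them alone, when 53.0% of all genes had H3K4me2 and 47.8% had it alone. Crx had 158 and 7, Nrl, which sets rod fate, 116 and 16, and its target Nr2e3 107 and 10, for H3K4me2 and H3K27me3. Otx2, Esrrb and Rax had both marks. Otx2, which acts upstream of Crx, had 140 and 46, and had had 73 and 212 at E17.5. Esrrb, a nuclear receptor of rods, had 98 and 90 after 50 and 317. Rax went the other way in H3K27me3, with 110 and 53 after 105 and 17.

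Rod promoters were poor in CpG despite their H3K4me2. The 250 bases before the start of the 19 rod phototransduction genes held a median of 4 CpG, against 16 for all genes with H3K4me2 alone. The letters TAATCC, the core of the sites bound by Crx and Otx2, occurred on either strand in 52.6% of these 19 promoters, against 6.39% of all 19222 promoters of this length (mm9) and 4.70% of those with both marks. The share was also above that of all promoters in other lists, at 33.3% for outer segment genes, 27.3% for photoreceptor regulators, 36.4% for cone genes and 29.4% for bipolar genes. Mueller glia genes had 16.7%, the genes listed by the study as rising in expression 15.8% and olfactory receptor genes 9.66%. It was 0% for amacrine, horizontal and DNA replication genes and 2.63% for Hox genes. Progenitor regulators had 4.55%, ribosomal protein genes 5.06% and ganglion cell genes 5.26%. The other motifs searched (TATAAA for the TATA box, GGGCGG for the GC box, and CCAAT) do not hold these letters. The motif is a match of letters and not a measured site. In the stretches below, the capitals mark GGATTA, which is TAATCC read on the other strand. Sag (chr1:87803430-87803679, plus strand), which encodes rod arrestin, had H3K4me2 alone at 53 with an H3K27me3 of 4, and Guca1a (chr17:47400607-47400856, minus strand) and Abca4 (chr3:122044210-122044459, plus strand) had both marks.
Sag: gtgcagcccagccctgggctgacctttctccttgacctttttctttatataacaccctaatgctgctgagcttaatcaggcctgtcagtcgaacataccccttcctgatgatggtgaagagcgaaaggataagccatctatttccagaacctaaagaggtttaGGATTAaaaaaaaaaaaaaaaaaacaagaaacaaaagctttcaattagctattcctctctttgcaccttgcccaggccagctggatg
Guca1a: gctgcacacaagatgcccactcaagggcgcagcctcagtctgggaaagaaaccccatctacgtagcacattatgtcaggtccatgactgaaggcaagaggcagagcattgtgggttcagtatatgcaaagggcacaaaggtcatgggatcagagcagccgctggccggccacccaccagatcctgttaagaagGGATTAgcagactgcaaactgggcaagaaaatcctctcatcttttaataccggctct
Abca4: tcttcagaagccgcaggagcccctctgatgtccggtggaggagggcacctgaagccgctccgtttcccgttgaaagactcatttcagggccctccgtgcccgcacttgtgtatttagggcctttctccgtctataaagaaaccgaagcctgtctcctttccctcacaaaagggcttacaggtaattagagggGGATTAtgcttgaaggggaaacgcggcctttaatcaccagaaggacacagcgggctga
Each stretch holds the motif 1 time, in promoters of both classes.

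The cone genes did not follow the rod genes. Of 11, none had both marks, 5 had H3K27me3 alone, 5 had neither, and Thrb, the thyroid hormone receptor of M cones, had H3K4me2 alone at 136. The shares over all genes were 5.23% with both marks, 10.5% with H3K27me3 alone and 36.5% with neither, so a list of this size can say little about both marks. Opn1sw had 2 for H3K4me2 and 49 for H3K27me3, and the cone transducin gene Gnat2 24 and 95. The channel subunit Cnga3 had 24 and 110. Cones are a small minority of the retinal cells.

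Genes of the inner retina were mostly on the H3K27me3 side, and each list had 3 with both marks. Of 19 amacrine genes 14 had H3K27me3 alone, of 9 horizontal cell genes 6, of 19 ganglion cell genes 13 and of 17 bipolar cell genes 7. Over all genes 10.5% had H3K27me3 alone and 5.23% had both marks. Their median H3K27me3 was 169, 148, 144 and 84 in that order, against 10 over all genes. A few genes belong to more than 1 list.

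The values below are those of whole retina and not of the named cells. Among the amacrine genes, those with both marks included Gad2, an enzyme of GABA synthesis, at 55 for H3K4me2 and 74 for H3K27me3. Another was the regulator Tcfap2a at 44 and 229. Gad1, the partner of Gad2, had H3K27me3 alone with 23 and 239. Among the horizontal cell genes, those with both marks were Onecut1 (42 and 171), Onecut2 (67 and 206) and Prox1 (82 and 108), all of them regulators of that fate. The remaining horizontal cell genes, Lhx1 among them at 19 and 304, had little H3K4me2.

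Among the ganglion cell genes, those with both marks in whole retina were the neurofilament genes Nefm (87 and 82) and Nefh (80 and 45) and the stathmin gene Stmn2 (38 and 42). Nefh had 26 and 457 at E17.5. The fate regulators Pou4f1 (32 and 209), Pou4f2 (20 and 223) and Isl2 (36 and 232) had H3K27me3 alone, Isl2 by less than 1 unit of H3K4me2. Of the bipolar cell genes, Bhlhe22 (64 and 84), Irx5 (70 and 198) and Gng13 (43 and 112) had both marks. Prkca, the classical label of rod bipolar cells, had H3K4me2 alone with 154 and 13. Grm6, the glutamate receptor of these cells, had 33 and 121.

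Of 18 Mueller glia genes, 7 had H3K4me2 alone, 3 had both marks, 4 had H3K27me3 alone and 4 had neither, when 47.8%, 5.23%, 10.5% and 36.5% of all genes did. The glutamine synthetase gene Glul had 111 and 5, whereas Rlbp1, the retinaldehyde-binding protein of the same cells, had 6 and 136. The 3 genes with both marks were Sox9 (48 and 132), Hes1 (85 and 73) and Lhx2 (50 and 117), which are also regulators of progenitors.

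**Figure D2:**
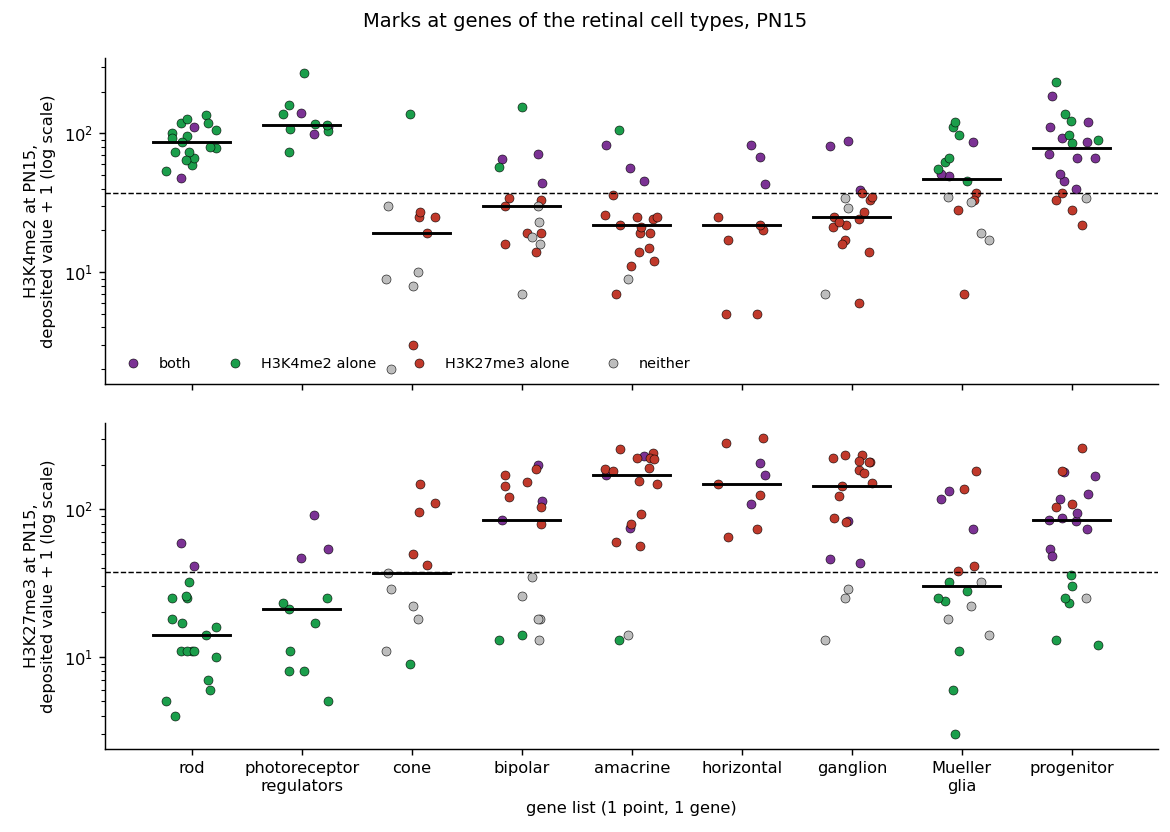
H3K4me2 (upper panel) and H3K27me3 (lower panel) at PN15, as deposited value plus 1 on a log scale, for the members of 9 gene lists, with 1 point for each gene coloured by class, a bar at the median and a dashed line at 36.48. All rod genes lie above the line for H3K4me2 with a median of 85, while most amacrine, horizontal and ganglion cell genes lie below it and above the line for H3K27me3.

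Regulators of retinal progenitors and the eye field had the highest share with both marks of the lists of retinal cells. Of 22 genes, 11 had both marks, 6 had H3K4me2 alone, 4 had H3K27me3 alone and Atoh7 had neither. Over all genes the shares were 5.23%, 47.8%, 10.5% and 36.5%. At E17.5 18 of them had H3K4me2 alone and 4 had both, against 46.5% and 7.52% of all genes. The median H3K4me2 was 77 at PN15 and 104 at E17.5, and the median H3K27me3 was 83 and 20, so at this list H3K27me3 was higher at the later stage and H3K4me2 lower.

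Pax6, the master regulator of the eye, was an example. From E17.5 to PN15 the successive values were 4, 15, 113 and 178 for H3K27me3 and 137, 97, 114 and 44 for H3K4me2. Others with both marks included Rax, Lhx2, Fgf15 (92 and 86), Sfrp2 (39 and 82), Hes1, Ccnd1, Neurog2 (65 and 167), Notch1 (70 and 84) and Meis2 (185 and 47). Neurog2 starts neurogenesis, Notch1 is the receptor that holds it back, and Hes1 is a target of Notch. Sox2 (36 and 182), Olig2 (21 and 260) and Foxn4 (27 and 108) had H3K27me3 alone, Sox2 by less than 1 unit. Six3 (96 and 22), Six6 (137 and 24), Hes5 (88 and 11), Dll1 (122 and 35), Meis1 and Prtg (84 and 29) had H3K4me2 alone, Dll1 by less than 2 units of H3K27me3.

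The machinery that writes and removes H3K27me3 had H3K4me2 itself. Of 13 genes of Polycomb repressive complex 2 and of the H3K27 demethylases, 12 had H3K4me2 alone, Ezh2 at 101, Eed at 146 and the demethylase gene Kdm6b at 167. Phf19, an accessory subunit, had 33 for H3K4me2 and 58 for H3K27me3. Among 10 genes of Cdk inhibitors and the retinoblastoma family, Cdkn1a had both marks (59 and 66), Cdkn2a (14 and 212) and Cdkn2b (32 and 105) had H3K27me3 alone, Cdkn1c had neither and 6 had H3K4me2 alone. No member of the 24 DNA replication and mitosis genes carried H3K27me3, and 20 of them carried H3K4me2 at PN15. Over all genes 15.7% carried H3K27me3, 53.0% carried H3K4me2 and 47.8% carried it alone.

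Gene families of development differed in the share with both marks at PN15. None of the 39 Hox genes had both marks at PN15 and all 39 had H3K27me3 alone, with a median of 318 for H3K27me3 and 5 for H3K4me2, as they had at E17.5 with 702 and 13. Of 48 genes of the Lhx, Nkx, Irx, Pax, Dlx and sine oculis families, 9 had both marks and 37 had H3K27me3 alone at PN15. Over all genes the shares at PN15 were 5.23% and 10.5%. At E17.5 the counts were 25 and 17, when the shares over all genes were 7.52% and 8.49%. Among the 9 with both marks at PN15 were Irx3, Irx5, Lhx2, Lhx4, Lhx9, Pax6, Six4 and Six5. The median H3K4me2 over the 48 was 19 at PN15 and 44 at E17.5. Dlx1, needed for inhibitory interneurons and ganglion cells, was an example with 18 and 281 at PN15 after 61 and 379.

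Of 44 Forkhead genes 7 had both marks, among them Foxp2 (86 and 73), Foxp4 (76 and 84) and Foxd1 (55 and 161), which is known for the temporal retina. Of 19 Sox genes Sox6 (58 and 127), Sox8 (49 and 72), Sox9 and Sox11 (87 and 56) had both marks, and of 19 Tbx and Gata genes Gata2 and Gata3 (63 and 236) did. Of 52 Wnt, Fgf and Bmp ligands 11 had both marks and 30 had H3K27me3 alone, against 20 and 19 at E17.5. Over all genes the shares with both marks and with H3K27me3 alone were 5.23% and 10.5% at PN15, and 7.52% and 8.49% at E17.5. Fgf15 (92 and 86), Bmp7 (74 and 84) and Wnt5a (55 and 140) had both, whereas Fgf9 was at 200 and 10 with H3K4me2 alone.

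Genes of neuronal wiring and excitability differed by family. Of 71 ephrins, semaphorins, Slits, netrins and their receptors, 21 had both marks, against 5.23% of all genes. Examples were the repellent Slit2 (89 and 50), the receptor Nrp1 (131 and 57), Efna5 (158 and 49), which guides ganglion cell axons, Epha4 (61 and 107) and Ntn1 (45 and 176). Of 89 potassium channel subunits 20 had both marks, Kcnc1 (62 and 67) among them. Of 47 glutamate and GABA receptor subunits 7 did, for example Grm8 (52 and 91) and Grik1 (45 and 49). Of the 58 clustered protocadherins, which give neurons their surface identity, 53 had neither mark, against 36.5% of all genes, and Pcdhac2 (73 and 90) had both.

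Housekeeping genes mostly had H3K4me2 alone, as 47.8% of all genes did. Of the 80 cytosolic ribosomal protein genes 75 had H3K4me2 alone, and of the 80 oxidative phosphorylation genes 73 did. None of either list had both marks. The proteasome genes (2 of 38) and the replication-dependent histone genes (3 of 64) had both marks in about the share of all genes, which is 5.23%. The proteasome genes were Psmb8 (53 and 134) and Psmb9 (48 and 113), the interferon-inducible subunits, which are neighbours in the genome. The histone genes were Hist3h2a (80 and 88), Hist3h2ba (44 and 108) and Hist3h2bb (79 and 85), which lie in 1 small cluster and can share reads of their windows. Of 315 Zfp genes 6 had both marks, Zfp503 (124 and 86) and Zfp423 (108 and 62) among them.

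Lists chosen mainly for other tissues and cells mostly had H3K27me3 alone or neither mark, which 10.5% and 36.5% of all genes had. Not every member is foreign to the retina. Sox2, also in the progenitor list, is among the pluripotency genes with H3K27me3 alone. Of 18 genes of erythroid cells, muscle, liver and pancreas 7 had H3K27me3 alone and 11 had neither, of 16 pluripotency and germ line genes 4 and 11, and of 16 blood and immune genes 4 and 11. The exceptions with both marks were Lin28a (81 and 40, the latter below the 99th percentile of the olfactory receptor genes), an RNA-binding protein of early embryos, and Gata3, a T cell regulator of the blood list. Of 13 vascular and pigment epithelium genes 3 had H3K4me2 alone, 3 had H3K27me3 alone and 7 had neither. Of 1047 olfactory receptor genes 1024 had neither mark and 23 had H3K27me3 alone.

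**Figure D3:**
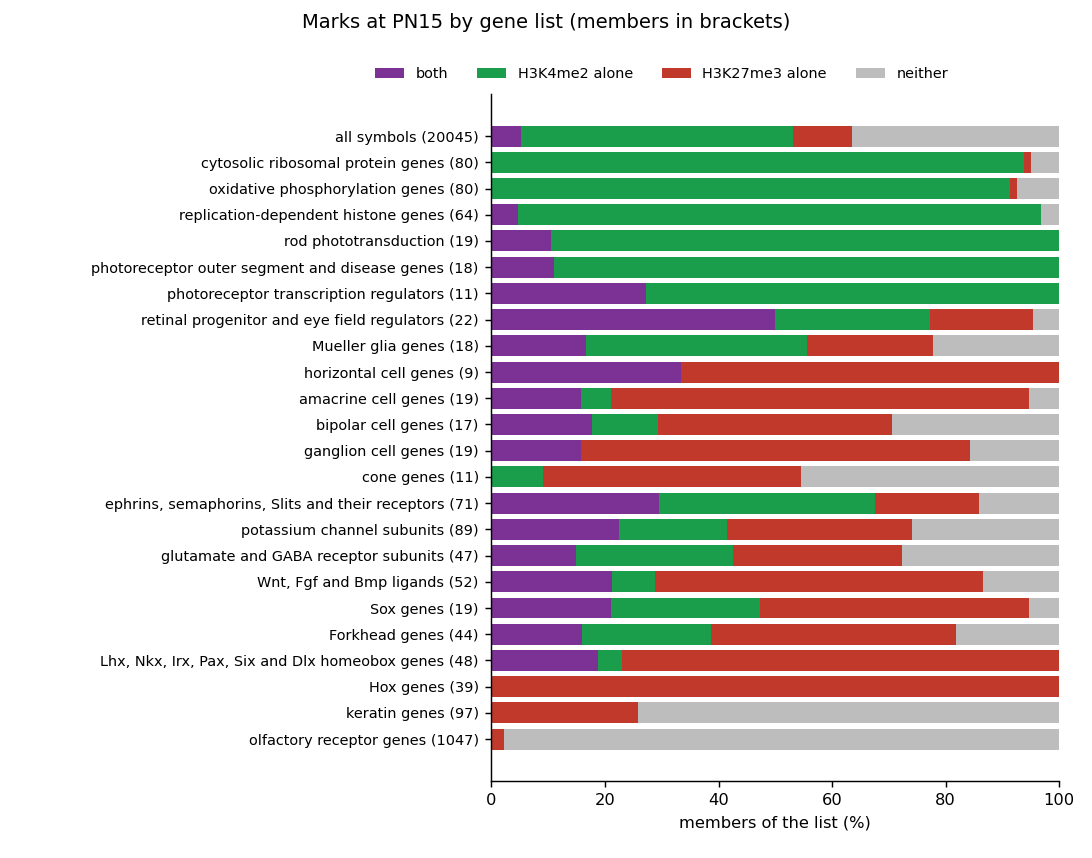
Share of the members of each gene list, in percent, with both marks, H3K4me2 alone, H3K27me3 alone or neither at PN15, beside all 20045 symbols. Progenitor and eye field regulators have both marks in 11 of 22 genes, Hox genes in 0 of 39 and ribosomal protein genes in 0 of 80.

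The lists used in the study of genes with rising or falling expression in the maturing retina had both marks in 11 of 120 and in 11 of 118 genes. The rising genes had H3K4me2 alone in 102 and H3K27me3 in 14, and the falling genes had H3K4me2 alone in 82 and H3K27me3 in 23. Over all genes, 5.23% had both marks, 47.8% had H3K4me2 alone and 15.7% had H3K27me3 with or without H3K4me2. The lists come from earlier transcriptome work on mouse retina. Among the rising genes with both marks were Plk5 (155 and 37), Susd3 (124 and 41) and Esrrb. Among the falling genes were Ccnd1, Fgf15, Sfrp2 and Stmn2.

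The class at PN15 was reached from different starting points. Of the 1049 genes with both marks, 634 (60.4%) had both at E17.5, 276 (26.3%) had H3K4me2 alone, 122 (11.6%) had H3K27me3 alone and 17 (1.62%) had neither. Of the 122, 30 had moved by at least 2-fold in H3K4me2. Over the whole table, both marks were found at 1507 genes at E17.5 (7.52%), 819 at PN1 (4.09%) and 1378 at PN7 (6.87%). H3K27me3 alone was found at 8.49%, 13.2% and 10.2% of the genes at these stages, and H3K4me2 alone at 46.5%, 33.2% and 25.4%. The H3K4me2 columns of PN1 and PN7 have lower medians over all genes, 27 and 24 against 41 at E17.5 and 42 at PN15. The highest H3K27me3 value over all genes was 809, 1125 and 766 at the earlier stages and 416 at PN15. In all 4 stages 295 genes had both marks, and 171 had both at PN15 and at no earlier stage. With the earlier columns scaled to the PN15 medians these numbers were 555 and 97.

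Genes with both marks at PN15 had a median H3K27me3 of 68, 82, 88 and 64 from E17.5 to PN15, and a median H3K4me2 of 58, 37, 57 and 53. The PN15 values are at least 37 by the rule and those of the earlier stages are free, so the medians of PN15 and of the earlier stages are not comparable.

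The genes that went from H3K4me2 alone to both marks were led, in H3K27me3 gained, by Pax6, Rbm9, Id2, Mpp2 and Pou3f1. Id2, an inhibitor of basic helix-loop-helix factors in progenitors, had 26, 33, 172 and 167 for H3K27me3 from E17.5 to PN15, and 144, 84, 89 and 95 for H3K4me2. Pou3f1, a POU factor of developing neurons, had H3K27me3 of 29, 56, 184 and 147. In these 5 genes H3K27me3 was over 110 from PN7 on. The splicing factor gene Rbm9 had 24, 48, 238 and 169, and the scaffold gene Mpp2 28, 30, 178 and 163. The H3K4me2 of Mpp2 was 94 at E17.5 and 37 at PN15 (counting interval 26.1 to 51.0), just over the value.

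The genes that went from H3K27me3 alone to both marks were led, in H3K4me2 gained, by Plk5, Abca4, Prkcz, Susd3 and Slc24a1. In each of them H3K27me3 was lower at PN15 than at E17.5. Prkcz, an atypical protein kinase C of cell polarity, had 379, 410, 219 and 76 for H3K27me3 from E17.5 to PN15, and 15, 15, 28 and 136 for H3K4me2. In Plk5 the values were 416, 561, 222 and 37 for H3K27me3, with 28, 22, 44 and 155 for H3K4me2. At PN15 the H3K27me3 of Plk5 and Abca4 was 37 in both, just over the value that counts as marked. Of the 17 genes that had neither mark at E17.5, Idua went from 35 and 18 to 45 and 155 and Fgfrl1, a decoy receptor for Fgf, from 35 and 22 to 63 and 73.

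Of the 1507 genes with both marks at E17.5, 634 (42.1%) still had both at PN15, 385 (25.5%) had H3K4me2 alone, 452 (30.0%) had H3K27me3 alone and 36 (2.39%) had neither. Of the 452, 252 had moved by at least 2-fold in H3K4me2. Those left with H3K4me2 included Celsr3, Fam89a, Rtbdn and Sez6. Celsr3, a planar polarity cadherin of axon tracts, had 293, 331, 81 and 20 for H3K27me3, and 63, 46, 127 and 203 for H3K4me2. Rtbdn, the retbindin of rods, had 254 for H3K27me3 at E17.5 and 23 at PN15.

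Those left with H3K27me3 were led by Fezf2, Dkk2, Foxi3, Kcna1 and H2-M5. Fezf2, a zinc finger regulator of neuronal fate, had H3K4me2 of 119, 79, 70 and 29 and H3K27me3 of 66, 130, 280 and 180. The Wnt antagonist gene Dkk2 had H3K4me2 of 104, 43, 50 and 27 with H3K27me3 of 95, 115, 107 and 68. Among the 36 left with neither mark was Atoh7, which starts ganglion cell formation, with H3K4me2 of 63, 42, 41 and 33 and H3K27me3 of 97, 120, 66 and 24.

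Some genes had one mark alone at E17.5 and the other alone at PN15, some of them with both in between, as Igf2bp1 and Dscaml1 had at PN7. From E17.5 to PN15, 137 genes went from H3K4me2 alone to H3K27me3 alone and 93 went the other way. The former were led by Igf2bp1, an RNA-binding protein of embryonic tissue, with H3K4me2 of 101, 58, 91 and 6 and H3K27me3 of 16, 32, 146 and 236, followed by Sox2, Tbx2, Dgkq and Abhd2. The latter were led by Dscaml1, an adhesion molecule that spaces retinal neurons, with 331, 325, 111 and 24 for H3K27me3 and 28, 21, 81 and 110 for H3K4me2, followed by Drd4, Ppm1n, Ntng2 and Slc12a5. Drd4, the dopamine receptor of photoreceptors, had 278 for H3K27me3 at E17.5 and 32 at PN15.

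Genes that went from neither mark to H3K4me2 alone numbered 599, of which 181 moved by at least 2-fold, and those to H3K27me3 alone 258. The first were led by Mpp4, a scaffold of the photoreceptor synapse (H3K4me2 of 11, 12, 15 and 164), and Cabp4, a calcium sensor of the same synapse (6, 15, 9 and 156), followed by Gpr152, Plekhb1 and Lrit2. The starts of Cabp4 and Gpr152 (155 at PN15) lie 175 bp apart in mm9, so they share most of a window. H3K27me3 stayed at or below 20 in all 5 at every stage. Those with H3K27me3 alone were led by Hal, Fxyd3, Gm1604b, Krt73 and Slc26a1. Krt73, a hair follicle keratin, had H3K27me3 of 20, 16, 110 and 121.

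**Figure D4:**
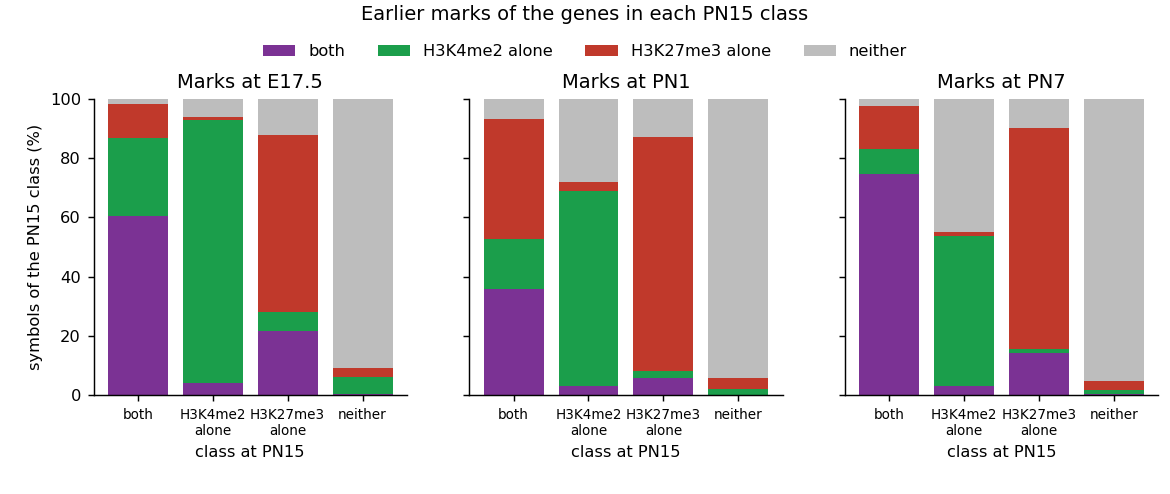
For the genes of each PN15 class (x axis), the share in percent (y axis) that had both marks, H3K4me2 alone, H3K27me3 alone or neither at E17.5, PN1 and PN7, with 1 library for each mark and stage. Of the genes with both marks at PN15, 60.4% had both at E17.5, 35.8% at PN1 and 74.5% at PN7, and the 376 genes behind the PN1 share became 706 of 1049 with the PN1 columns scaled to the PN15 medians.

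Promoter sequence, which the rule did not use, differed between the classes. In the 250 bases before the gene start (mm9), found for 95.9% of the genes, the median number of CpG was 16 in genes with both marks, 16 with H3K4me2 alone, 9 with H3K27me3 alone and 3 with neither, against 10 over all genes. At least 10 CpG were found in 74.6%, 77.6%, 48.4% and 12.1% of them. Genes with both marks thus had the CpG content of genes with H3K4me2 alone and not that of genes with H3K27me3 alone. Over the whole window of 5 kb around the start, which is the window of the measured values, genes with both marks had the most CpG, with a median of 169 against 128, 112 and 47.

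The share of genes with both marks was 0.650% of the 2769 genes with 0 or 1 CpG, 2.29% with 2 to 4, 4.98% with 5 to 9, 6.76% with 10 to 14, 6.59% with 15 to 19 and 9.17% of the 4373 with 20 or more. The bins of 10 to 14 and 15 to 19 were thus close to each other. For H3K27me3 alone the share was highest in between, at 15.9% with 5 to 9 CpG, and it was 5.06% in the first bin and 8.35% in the last. The part of CpG content in the recovery and mapping of reads was not tested.

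**Figure D5:**
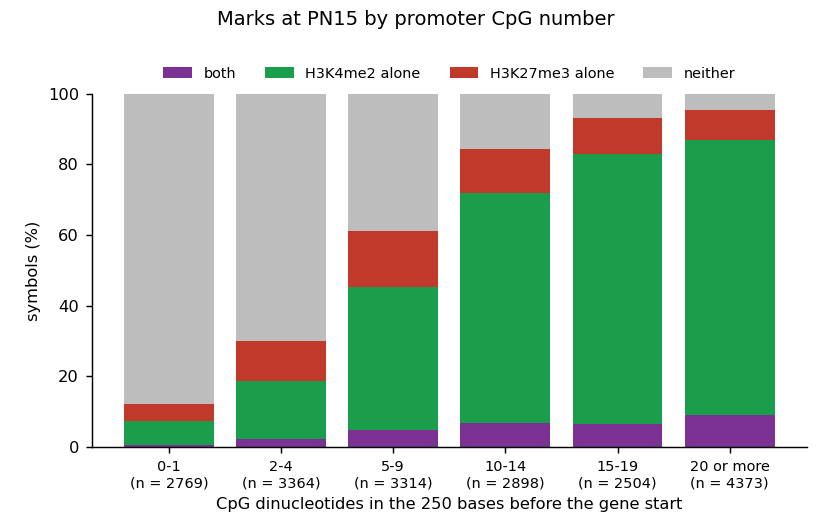
Share of genes in percent (y axis) with both marks, H3K4me2 alone, H3K27me3 alone or neither at PN15, by the number of CpG in the 250 bases before the gene start (x axis, number of genes in brackets). Both marks make up 0.650% of the first bin, 6.76% and 6.59% of the bins of 10 to 14 and 15 to 19, and 9.17% of the last, and neither mark 87.6% of the first and 4.66% of the last.

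Gene length and the distance to other genes also differed between the classes. The median length of genes with both marks was 39.0 kb, against 24.1 kb with H3K4me2 alone, 15.9 kb with H3K27me3 alone, about 10 kb with neither and 18.1 kb over all genes. Another protein-coding start lay within 2.5 kb in 9.97% of them, against 23.8%, 6.31%, 4.61% and 14.3% in the same order. There the marks of a neighbour can fall into the window, as at Col4a1 and Col4a2, which share a start region and have equal values (37 and 54).

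Of the genes with both marks, 208 had several entries with different starts, and in 127 of them every entry had both marks. Of all 3224 genes with several entries, 452 had entries in more than 1 class, and 14 had one entry with H3K4me2 alone and another with H3K27me3 alone.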

How the data were processed

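Retina ChIP-Seq for H3K4me2 and H3K27me3 was read from the deposited table of 25152 RefSeq entries and 8 libraries. The deposited values are scores, namely reads within 2.5 kb of each TSS that the authors mapped with Bowtie 0.12.4 to mm9, freed of reads with several positions, centred with a fragment of 190 bp, normalized to the mapped reads of the library and rounded. They are not counts, so no count model was used. Total depth is not given in the sources used here.

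A trailing number was dropped from the symbols, and of several entries per symbol the one with the largest 8-column sum was kept, which left 20045 symbols. Of them 25 had been turned into dates and 347 shared all 8 values with another symbol. Members and gene lists were chosen with earlier results of these data known. Named genes were the 10 with the largest lesser value, the 10 with the most of a single mark, the 5 with the largest change in each change of class from E17.5, and list members on which a count turns. With 1 library per mark and stage, lists are described by counts and medians beside all genes. CpG and motifs (TAATCC and 3 core promoter boxes, both strands) were counted in mm9 at GENCODE starts, and printed promoters come from RefSeq (GRCm38.p6, entries for 69.7% of the symbols). The procedures were tested on simulated data. Python 3.11.15, numpy 2.4.6, pandas 2.3.3, scipy 1.17.1, pysam 0.24.0 and matplotlib 3.10.9 were used. The rd1/rd1 and anti-GFP libraries were not analysed here. Some genes covered by the naming rule are not reported here.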

Additional observations from a re-analysis of the deposited data

How the results depend on the processing

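The number of genes with both marks depended on the value that counts as marked. It was 3103 at 2 times the mean anti-GFP value, 1806 at 3 times, 285 at 6 times and 81 at 8 times, 2178 with the 99th percentile of the olfactory receptor genes as the value in each column, 413 where the counting intervals had to lie on one side, and 5246 with H3K27me3 scaled to the median of H3K4me2. H3K4me2 alone moved to 5678 at 8 times and to 5387 under that scaling, H3K27me3 alone to 587, 1199 and 7624 under the percentile, the intervals and the scaling, and neither mark to 4788 at 2 times, 12860 at 8 times and 1788 under the scaling. Other ways to represent a symbol, the count over every entry, and counting symbols with equal values once (chosen after seeing the data, 1048 genes with both marks) stayed within 1.5 times.

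Where a change of class from E17.5 had to be at least 2-fold, 252 genes went from both marks to H3K27me3 alone, 30 from H3K27me3 alone to both and 181 from neither to H3K4me2 alone. With the earlier columns scaled to the PN15 medians, both marks were shared by 706 genes between PN1 and PN15 (376 unscaled), 555 had both at all stages and 97 at PN15 only. Genes with both marks had 7 more CpG in the median than genes with H3K27me3 alone, 10 more at 2 times and 6 more at 8 times the anti-GFP value. The difference was 0.22 in observed over expected CpG and 4.8 percentage points in G+C. The number with both marks moved by over 1.5 times in 64 of 86 recounts of the gene lists at 2 and 8 times. No paired analysis was possible because each mark and stage had 1 library.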

Other observations

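A pair of gene groups was added after values had been seen. Of 17 immediate early genes, which neurons switch on within minutes of activity, 7 had both marks at PN15, 9 had H3K4me2 alone and Nr4a3 had H3K27me3 alone (10 for H3K4me2 and 126 for H3K27me3). Over all genes 5.23% had both marks at PN15 and 7.52% at E17.5. The group was added once Nr4a2 and Egr2 had been seen among the genes richest in both marks, so its count is no support for a theme. The 7 were Fosl1, Fosl2, Egr2, Egr3, Egr4, Nr4a2 and Arc. At E17.5 11 had both marks, and the median H3K27me3 of the group was 131 then and 18 at PN15. Egr1 had 134 for H3K27me3 at E17.5 and 10 at PN15, Nr4a1 152 and 10, and Junb 51 and 7, whereas Egr3 had 344 and 182.

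Of 16 dorsoventral patterning genes of the retina, Vax2 had both marks, 10 had H3K27me3 alone and 4 had H3K4me2 alone at PN15, whereas 6 had both at E17.5. Over all genes 5.23%, 10.5% and 47.8% were in these classes at PN15, and 7.52% had both marks at E17.5. Tbx3, a dorsal regulator, had H3K4me2 of 107 and H3K27me3 of 54 at E17.5 and 36 and 209 at PN15, and Vax1 had 67 and 341 and then 20 and 238. The ephrin gene Efnb2 had H3K4me2 alone at both stages, at 94 and 106. On the X chromosome 4.28% of 794 genes had both marks, 21.3% had H3K4me2 alone and 64.9% had neither. Over the autosomes the share with both marks ran from 3.94% on chromosome 7 to 7.65% on chromosome 12.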
